A study of Oryzias latipes with 6 samples.

Results

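The effect of constitutive expression of ATF6α(N) on heart transcripts of medaka was followed over both AXER genotypes at once. It comprises 24 of the 36 sequenced libraries of the series. The 12 libraries of hearts with the active allele were 6 of AXER+/+ medaka carrying ATF6(N/+), called [WT + ATF6α(N)], and 6 of AXER-/- medaka carrying ATF6(N/+), called [KO + ATF6α(N)]. The 12 libraries without the allele were 6 of AXER+/+ (WT) medaka and 6 of AXER-/- (KO) medaka, and AXER genotype entered an additive model as a block. The remaining 12 libraries, of AXER+/+ and AXER-/- medaka carrying XBP1(S/+), have no part in this contrast. All embryos were at 5 days post fertilization (dpf), and RNA was taken from whole hearts. The allele is carried on 1 chromosome and lies at the ATF6α locus itself, edited so that the protein made from it lacks the ER-luminal part and nearly all of its membrane anchor, and thus the nuclear form is made in every cell that uses the locus, not only in the heart. The strain is HdrR in the labels and cab in the study's methods. According to the study, fish erythrocytes keep their nuclei, so RNA of blood cells within the heart was sequenced along with that of the heart. In such bulk RNA, fewer cells of a type and less RNA per cell cannot be told apart. It is not stated in the sources used here if each library of a genotype stands for its own heart, pool or clutch, and the p-values reflect library-to-library spread that can be technical in part.

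ATF6α is an ER membrane protein that senses unfolded protein. Under ER stress it moves to the Golgi and is cleaved there, and its freed cytosolic fragment, ATF6α(N), enters the nucleus and activates genes of ER chaperones through the ER stress response element. AXER, an exchanger of ATP and ADP in the ER membrane, supplies the ATP that the chaperone BiP uses, and its loss burdens the ER. A medaka with ATF6α(N) from fertilization therefore has 1 arm of the unfolded protein response switched on without the sensing step, either on its own (WT background) or on top of the stress of AXER loss (KO background). The question of this comparison is which heart transcripts follow the allele whatever the AXER genotype. The deposited tables list Ensembl medaka transcripts, and 0 of 37495 identifiers matched the gene names used here. Chaperones, heart markers and blood markers were therefore not looked up, the labelled tissue was not checked against its markers, and the leading transcripts are described by their levels, 4 of them by identifier and the others by their rank of p.

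Libraries held 2692071 to 11455186 estimated reads with ATF6α(N) (median 5257575) and 2524357 to 19619140 without it (median 4961552). Estimated reads on the log10 scale, the share of the 10 most abundant transcripts, the number of transcripts detected at equal depth and the normalization factor were compared between the arms by 4 two-sided permutation tests that kept each library in its AXER genotype (100000 resamples). None of the 4 passed, and the smallest adjusted p from these permutations was 0.327. That value belonged to the share of the 10 most abundant transcripts, which was 20.3 ± 2.79% with ATF6α(N) and 21.8 ± 2.74% without it (SD, n = 12 each). No 2 libraries of 1 genotype were alike within sampling noise, since the lowest chi-square per degree of freedom over 60 pairs was 6.91.

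No transcript was called for ATF6α(N) over the AXER genotypes, among 17095 transcripts that passed a filter on low counts. A call required an adjusted p under 0.05 from edgeR's quasi-likelihood test (Benjamini-Hochberg over all transcripts) and a change above 1.5-fold, so the share called was 0%. The smallest adjusted p from edgeR was 0.277. At an unadjusted p under 0.05 stood 606 transcripts, 3.54% of those tested, with 309 higher (1.81%) and 297 lower (1.74%) in hearts with ATF6α(N). Of these, 110 were higher and 93 lower by more than 1.5-fold. At p under 0.001 stood 11 transcripts, where p-values spread evenly would give 17.1. limma-voom likewise made 0 calls (808 at an unadjusted p under 0.05). DESeq2 made 2 calls, 1 higher and 1 lower, among 34321 transcripts it tested (1007 at an unadjusted p under 0.05). Its lower call is described below. Its higher call is not among the 4 transcripts named below, and which transcript it was is not given here. With edgeR, 1 transcript was called when KO replicate 2 was left out and 1 when [KO + ATF6α(N)] replicate 2 was.

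Loss of AXER, estimated in the same fit from the same 24 libraries, gave 137 transcripts called higher (0.801%) and 68 called lower (0.398%). The median log2 fold change of these calls was 0.94 for the higher and -0.77 for the lower. The libraries were thus able to yield calls for changes of this size, which does not show that smaller changes would be called. Of the whole spread of log2 expression between the 24 libraries, 6.13% went with AXER genotype, 3.98% with ATF6α(N) and 4.22% with the product of both. A factor unrelated to expression would take 4.35%, so the shares of ATF6α(N) and of the product were below and that of AXER above it.

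**Figure D1:**
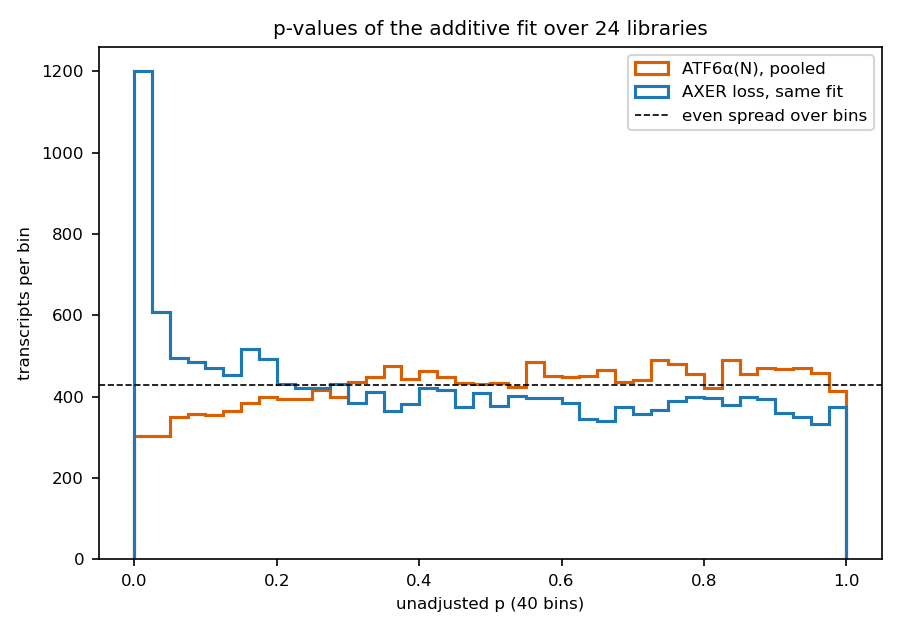
Number of transcripts (y axis) in 40 bins of unadjusted p (x axis) for ATF6α(N) pooled over AXER genotypes (orange) and for AXER loss in the same additive fit (blue), with the number of an even spread dashed. The bins of smallest p hold fewer transcripts than an even spread for ATF6α(N), with 606 of 17095 under 0.05, and an excess for AXER loss.

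How large a change could have gone unseen depended on the level of the transcript, given here in counts scaled to the normalized library size (CPM). The 95% interval of the pooled ATF6α(N) effect lay within 1.5-fold either way for 8259 transcripts (48.3%) and within 2-fold for 13128 (76.8%). Among the 3693 transcripts of 20 to 100 CPM it lay within 1.5-fold for 92.6%, and among the 997 of 100 CPM and over for 92.1%. Among the 6582 transcripts of 5 to 20 CPM the share was 56.5% within 1.5-fold and 95.1% within 2-fold. Under 5 CPM, where 5823 transcripts stood, it was 3.43% and 39.1%, so that for most of these the interval reached beyond 2-fold. For transcripts of at least 20 CPM, therefore, a pooled change beyond 1.5-fold was mostly outside the interval, transcript by transcript. An interval wholly beyond 1.5-fold was found for 8 transcripts, all of them under 5 CPM. The intervals are not adjusted for the number of transcripts, and none of the 8 was called by edgeR.

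**Figure D2:**
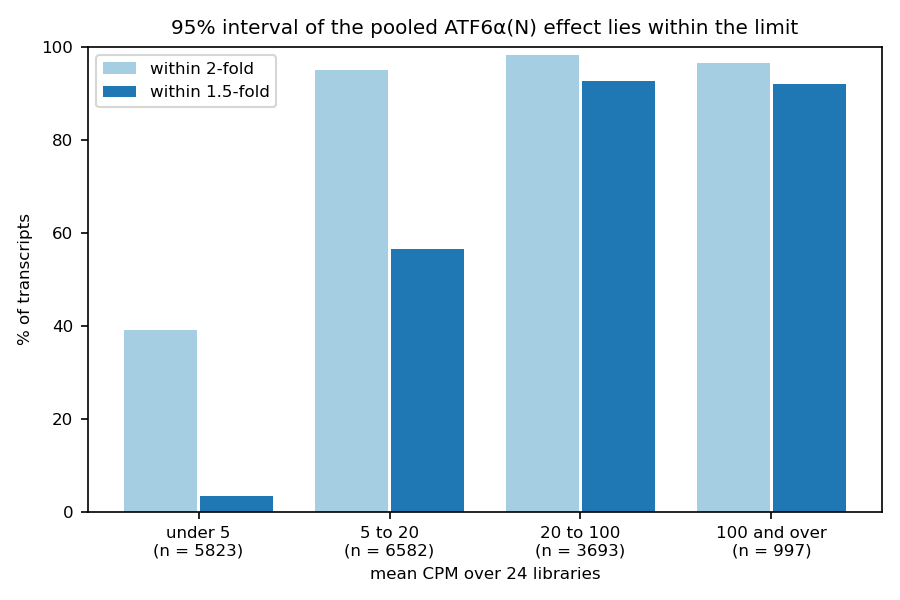
Share of transcripts (y axis, percent) whose 95% interval of the pooled ATF6α(N) effect lies within 2-fold (light) or within 1.5-fold (dark), by mean CPM over 24 libraries (x axis). The share within 1.5-fold is 3.43% under 5 CPM and 92.6% at 20 to 100 CPM.

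Transcripts at the head of the list are described next as values, none of them called in the pooled comparison by edgeR. The smallest p belonged to ENSORLT00000005468.2, an abundant transcript. Its level was 205, 239, 359, 323, 260 and 278 CPM in [WT + ATF6α(N)] hearts, against 154, 127, 200, 128, 182 and 160 CPM in WT hearts. In the KO background it was 921, 637, 1212, 983, 1218 and 1364 CPM in [KO + ATF6α(N)] hearts, against 780, 1031, 767, 644, 767 and 922 CPM in KO hearts. Thus every [WT + ATF6α(N)] library was above every WT library, by a narrow margin, whereas the KO libraries overlapped and the lowest [KO + ATF6α(N)] library lay below all 6 KO libraries. The pooled log2 fold change was 0.59 (standard error 0.12, 95% interval 0.34 to 0.83), with an adjusted p of 0.277 from edgeR. Leaving out the lowest library of [KO + ATF6α(N)] hearts, replicate 2, brought it to 0.65 with an adjusted p of 0.0212 from edgeR, past the threshold. That was the smallest of 24 fits with 1 library left out. Their adjusted p from edgeR for this transcript ran up to 0.698, and 23 of the 24 did not call it. DESeq2 gave the full set an adjusted p of 0.0356 with a log2 fold change of 0.58, short of the 1.5-fold limit. AXER loss, averaged over hearts with and without ATF6α(N), went with a log2 fold change of 2.15 of the same transcript (adjusted p = 1.42e-13 from edgeR).

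The next by p was ENSORLT00000009162.2, with a change under 1.5-fold. It stood at 76.4, 71.2, 63.2, 86.8, 78.2 and 66.8 CPM in [WT + ATF6α(N)] hearts, against 69.7, 49.6, 62.7, 66.5, 69.3 and 54.9 CPM in WT hearts. In [KO + ATF6α(N)] hearts it stood at 476, 485, 512, 397, 423 and 485 CPM, against 309, 385, 334, 324, 339 and 320 CPM in KO hearts. Here it was the KO background in which the libraries did not overlap, and the WT background in which they did. The log2 fold change was 0.25 (standard error 0.11) in the WT background and 0.46 (standard error 0.11) in the KO background, and the difference between them, 0.22 (standard error 0.15), did not pass (edgeR adjusted p = 0.994). Pooled, it was 0.36 (standard error 0.08, 95% interval 0.20 to 0.52), again with an adjusted p of 0.277 from edgeR. DESeq2 gave it an adjusted p of 0.0125, the smallest of that tool, with a change also under 1.5-fold. AXER loss went with a log2 fold change of 2.54, the adjusted p from edgeR being 1.37e-20. The transcript of rank 8 had nearly the same levels in the 4 genotypes (77.1 ± 6.44 CPM in [WT + ATF6α(N)], 68.9 ± 9.08 CPM in WT, 498 ± 46.0 CPM in [KO + ATF6α(N)] and 365 ± 38.3 CPM in KO hearts; SD, n = 6 each). Its deviations from the genotype means correlated at 0.856 with those of ENSORLT00000009162.2 over the 24 libraries, as a description. A shared gene or shared reads of the 2 was not tested.

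On the lower side, ENSORLT00000007261.2 had the smallest p and a low level throughout. It was at 0.989, 1.39, 1.44, 2.42, 1.63 and 2.36 CPM in [WT + ATF6α(N)] hearts, against 5.87, 4.84, 4.13, 5.37, 4.73 and 4.93 CPM in WT hearts. It was at 0.749, 2.35, 1.60, 0.758, 1.24 and 3.09 CPM in [KO + ATF6α(N)] hearts, against 3.59, 1.88, 2.93, 2.62, 6.25 and 3.85 CPM in KO hearts. The WT background showed a clear gap between the 6 and 6 libraries, and in the KO background the ranges overlapped. Its pooled log2 fold change was -1.27 (standard error 0.28, 95% interval -1.85 to -0.71, edgeR adjusted p = 0.277), and DESeq2 gave -1.24 with an adjusted p of 0.0405, a call. No call came from limma-voom, which gave -1.04 with an adjusted p of 0.973. The adjusted p from edgeR was 0.998 after thinning to equal depth and 0.999 with all 36 libraries. AXER loss went with a log2 fold change of -0.28 of this transcript, which did not pass (adjusted p = 0.816 from edgeR).

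ENSORLT00000014064.2 was the next on the lower side, at rank 14. Its level ranged over 9.51 to 19.1 CPM in [WT + ATF6α(N)] hearts and 18.5 to 27.9 CPM in WT hearts. It ranged over 4.03 to 16.8 CPM in [KO + ATF6α(N)] hearts and 9.02 to 21.8 CPM in KO hearts. The ranges overlapped in both backgrounds, by 1 library of [WT + ATF6α(N)] hearts in the WT background. The log2 fold change was nearly the same in both, at -0.71 (standard error 0.27) and -0.66 (standard error 0.28), and -0.69 pooled (edgeR adjusted p = 0.998).

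Another pair of transcripts, at ranks 4 and 6, were the calls of edgeR in the WT background (0.0117% of those tested, both higher), where limma-voom also made 2 calls and DESeq2 made 3, all higher. Their levels of [WT + ATF6α(N)] and WT libraries did not overlap: the first lay at 127 to 178 CPM (median 156) in [WT + ATF6α(N)] hearts and 71.8 to 103 CPM (median 87.03) in WT hearts. In the KO background, in contrast, it lay at 339 to 517 CPM (median 429) in [KO + ATF6α(N)] hearts and 283 to 509 CPM (median 359) in KO hearts, ranges that mostly coincide. Its log2 fold change was 0.80 (standard error 0.14) in the WT and 0.21 (standard error 0.14) in the KO background. For the transcript of rank 6 these were 0.92 (standard error 0.14) and 0.17 (standard error 0.14). The effect in the KO minus that in the WT background was -0.59 (standard error 0.19) at rank 4 and -0.75 (standard error 0.20) at rank 6. Neither difference passed after adjustment over all transcripts (edgeR adjusted p = 0.994 for each). Deviations of the 2 transcripts from the genotype means correlated at 0.925 over the 24 libraries, so they are hardly 2 separate measurements, and whether they share reads was not tested. Whether these 2 transcripts were called depended on single libraries. Without WT replicate 5, WT replicate 6 or [WT + ATF6α(N)] replicate 4, 0 calls were left. The smallest adjusted p from edgeR was then 0.0503, 0.0647 and 0.0544, just past the threshold. Without WT replicate 2 or 4 or [WT + ATF6α(N)] replicate 1, 2 or 5, 1 transcript was called. After all libraries were thinned to 1 depth, 4 transcripts were called. Only the number of calls was kept for these fits, not which transcripts they were.

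At rank 5 stood a rare transcript with more reads in hearts with ATF6α(N) than without it. It was read 55 times in 5 of 6 [WT + ATF6α(N)] libraries and 10 times in 2 of 6 WT libraries, a ratio at equal depth of 4.99 (95% exact counting interval 2.52 to 10.99). It was read 66 times in 6 of 6 [KO + ATF6α(N)] libraries and 3 times in 2 of 6 KO libraries, a ratio of 26.6 (95% exact counting interval 8.73 to 133). These intervals cover counting error only. The transcript was chosen by its small p in these same libraries, so the intervals are a description and no separate test. WT replicate 2 held 7 of the 10 reads of WT hearts, and without it the ratio was 13.6 (interval 4.41 to 67.8). Each other library of the WT background left out gave this ratio a value from 3.36 to 5.95. Without [WT + ATF6α(N)] replicate 2, which held 21 of the 55 reads, it was 3.68 (interval 1.78 to 8.35). Without WT replicate 3, which held 0 reads, it was 3.36 (interval 1.70 to 7.40). KO replicate 2, the most deeply sequenced library, held 2 of the 3 reads of KO hearts, and without it the ratio was 47.2 (interval 8.19 to 1894). [KO + ATF6α(N)] replicate 3 held 24 of the 66 reads, and without that library the ratio was 20.3 (interval 6.48 to 102). In CPM, the [KO + ATF6α(N)] libraries (0.805 to 4.27) did not overlap the KO libraries (0 to 0.128), whereas 1 of the [WT + ATF6α(N)] libraries was at 0 as were 4 of the 6 WT libraries, and WT replicate 2, at 1.17 CPM, was above 3 of the [WT + ATF6α(N)] libraries. Its passage through the filter on low counts rests on the libraries in which it is high. The pooled adjusted p from edgeR was 0.277. The transcript of rank 7 was abundant, at 363 ± 46.4 CPM in [WT + ATF6α(N)], 253 ± 34.2 CPM in WT, 1204 ± 156 CPM in [KO + ATF6α(N)] and 1033 ± 116 CPM in KO hearts (SD, n = 6 each), with a pooled log2 fold change of 0.37 (standard error 0.09, edgeR adjusted p = 0.345).

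**Figure D3:**
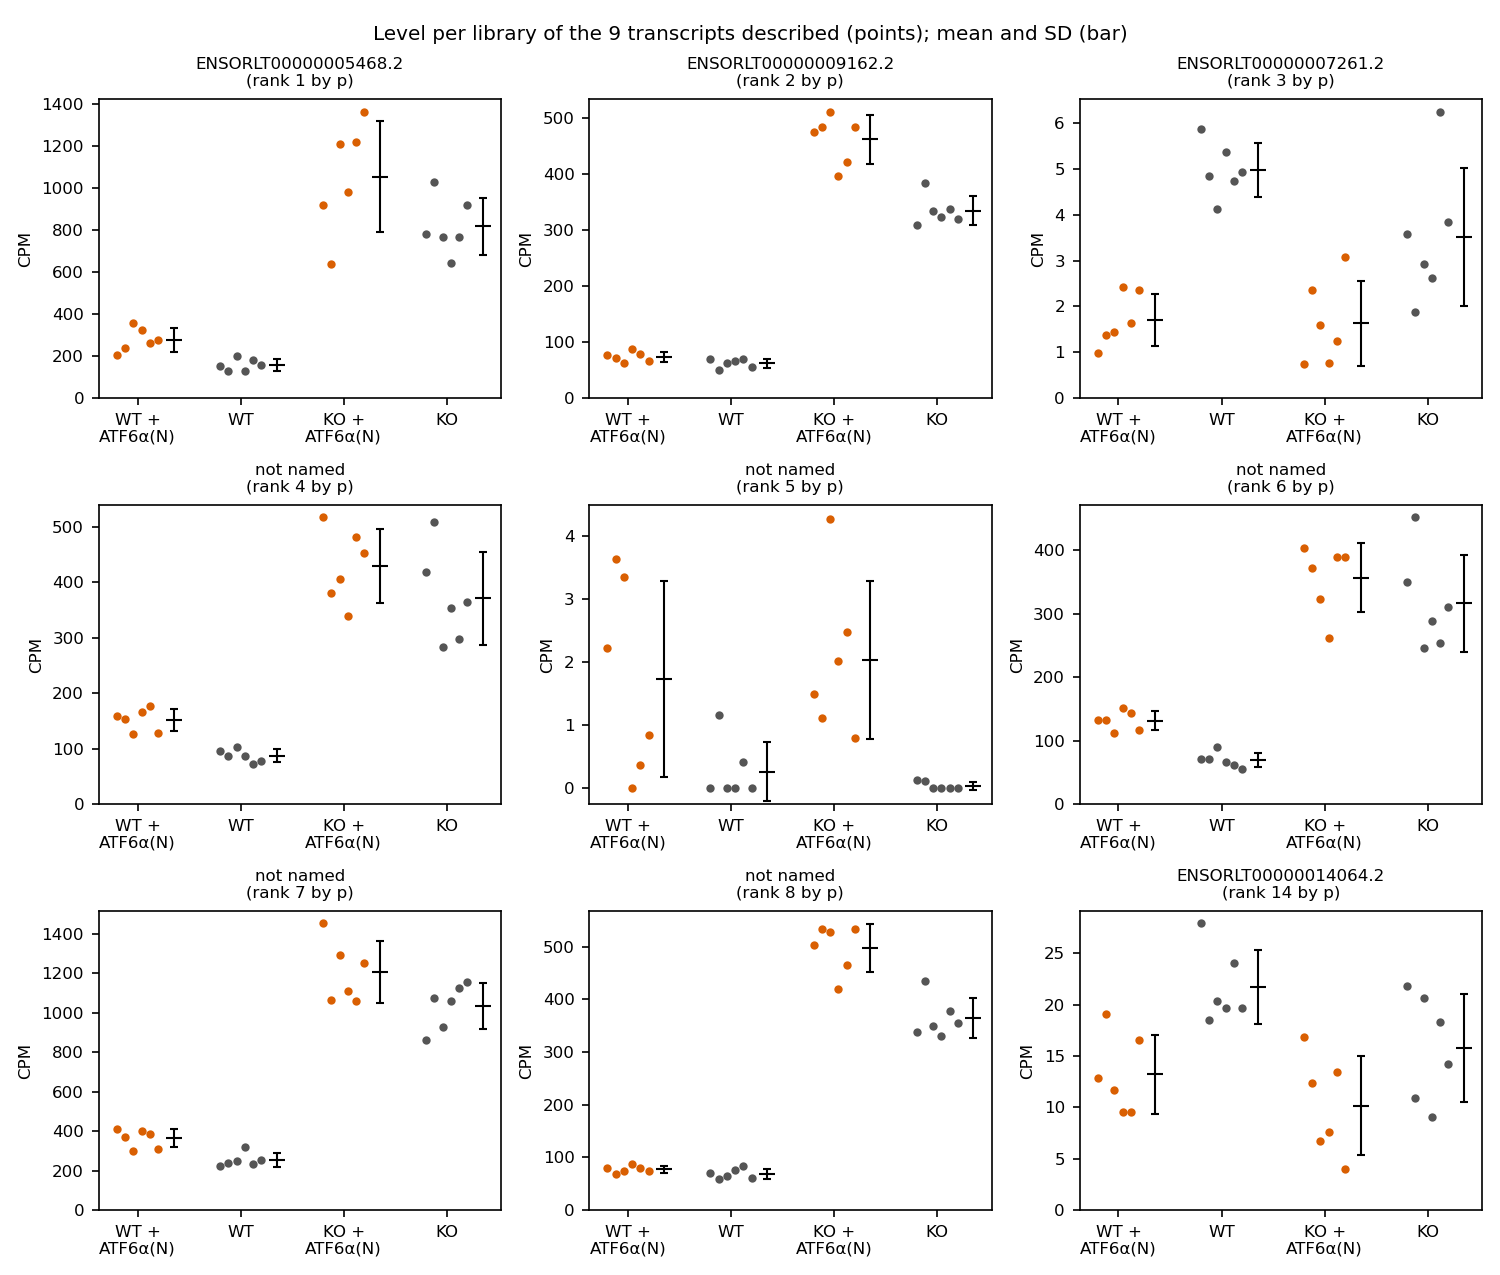
Level in CPM (y axes, linear) of the 9 transcripts described, in each of 24 libraries (points, 6 per genotype, orange with ATF6α(N) and grey without), with the mean and SD of each genotype as a black bar. In 6 of the 9 panels the KO background lies above the WT background as a whole, and no panel has both pairs of genotypes apart.

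The additive model averages 2 effects that share no library, that of the WT background and that of the KO background. Their estimated log2 fold changes bore little relation to each other. In the WT background 442 transcripts were higher (2.59%) and 385 lower (2.25%) with ATF6α(N) at an unadjusted p under 0.05. In the KO background 218 were higher (1.28%) and 303 lower (1.77%), and 0 (0%) were called by edgeR, with 0 calls also by limma-voom (675 at an unadjusted p under 0.05) and by DESeq2 (887). Of the 442 higher in the WT background, 10 (2.26%) were also higher in the KO background at that p and 12 (2.71%) were lower. Of the 385 lower in the WT background, 11 (2.86%) were lower in the KO background and 5 (1.30%) were higher. Taken as direction alone, 208 of the 442 (47.1%) had a positive log2 fold change in the KO background, where 49.4% of all transcripts did. Across the 4690 transcripts of at least 20 CPM the log2 fold changes of the 2 backgrounds correlated at -0.11 (Pearson) and -0.13 (Spearman), and across the 997 of at least 100 CPM at 0.06 and -0.06. These are descriptions across transcripts, which are not independent replicates. At an unadjusted p under 0.05 stood 4.84% of transcripts in the WT and 3.05% in the KO background, no more than evenly spread p-values would give. Estimates made mostly of library-to-library spread would correlate little even if the effects were alike. The low correlation therefore does not show that the backgrounds respond differently. The study, which counts genes and not transcripts, reports genes altered by ATF6α(N) in KO hearts at the same thresholds (above 1.5-fold, q-value under 0.05). It also reports higher expression of ER chaperones in [WT + ATF6α(N)] than in WT hearts. What sets its calls apart from the 0 found here in the KO background was not tested.

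A test of the difference itself, the effect in KO minus that in WT hearts, called 0 transcripts (0%) with edgeR, 0 with limma-voom and 0 with DESeq2. At an unadjusted p under 0.05 edgeR gave 680, of which 290 were higher (1.70%) and 390 lower (2.28%), limma-voom gave 868 and DESeq2 1081. The smallest adjusted p from edgeR was 0.994. A difference of effects has a wider error than either effect, and a p above the threshold does not show that the backgrounds respond alike.

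Few transcripts had libraries without overlap. With 6 libraries against 6 and 17095 transcripts tested, some are separated by chance alone, so separation of a transcript is not by itself evidence of an effect. The transcripts described above were chosen by their small p in these libraries, and a lack of overlap in them is no added support. In the WT background 22 transcripts had every [WT + ATF6α(N)] library above every WT library (0.129% of those tested) and 22 had every one below (0.129%). In the KO background 15 had every [KO + ATF6α(N)] library above every KO library (0.0877%) and 18 had every one below (0.105%). In both backgrounds at once, 0 transcripts were separated, in either direction, and with so few in each background this 0 says nothing about how the backgrounds relate.

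**Figure D4:**
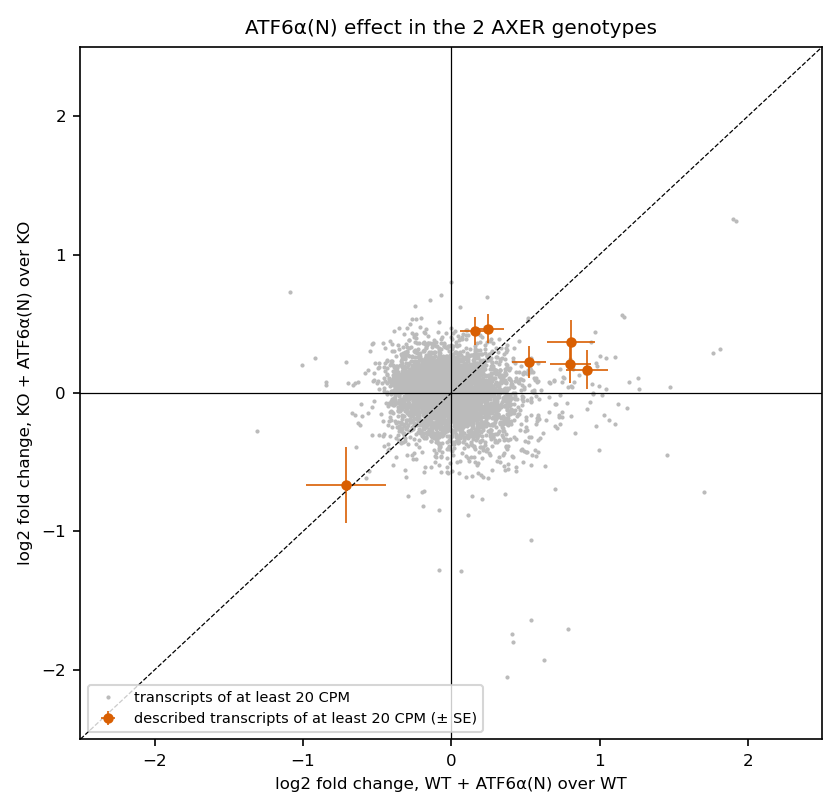
Log2 fold change of each transcript of at least 20 CPM with ATF6α(N) in the KO background (y axis) against that in the WT background (x axis), with 7 of the described transcripts in orange (bars, standard error) and the line of equal effects dashed. Among the orange points, ENSORLT00000014064.2 has a mean of 15.2 CPM and is thus below the 20 CPM that the legend gives. The 4690 transcripts form a round cloud around 0 (1 lies outside the axes), and the described ones were chosen by their pooled p.

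Transcripts that responded to AXER loss were looked at as a group, since 6 of the 8 transcripts with the smallest pooled p had a log2 fold change of 1.79 to 2.55 with AXER loss. To keep the choice of the group apart from the 24 libraries, it was made in the 12 libraries of XBP1(S) carriers alone, as AXER-/- against AXER+/+ hearts. There, 12 transcripts were called higher and 5 lower among 13121 tested. In the 24 libraries of the comparison, these 12 were also higher in KO than in WT background (median log2 fold change 1.98).

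All 12 had a positive pooled log2 fold change with ATF6α(N), of 0.05 to 0.59 with a median of 0.31, where 50.3% of all tested transcripts were positive and their median was 0.0013. At an unadjusted p under 0.05, 9 of the 12 were higher (beside 1.81% of all tested), although none was called and the smallest adjusted p among them from edgeR was 0.277. In the WT background 12 of 12 were positive with a median of 0.36, and in the KO background 11 of 12 with a median of 0.21. The 12 include the transcripts of ranks 1, 2, 4, 6, 7 and 8, whose small p prompted the group. The 6 others were positive as well, at 0.05 to 0.32 with a median of 0.20, and 3 of the 6 were higher at an unadjusted p under 0.05. Among the 12, at least 2 pairs moved together from library to library, so that they are fewer than 12 separate measurements. The group was made after the leading transcripts had been seen, and its count is a description.

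The mean level of the 12, as log2(CPM + 1), was 6.17, 5.95, 5.99, 6.23, 6.01 and 5.91 in the libraries of [WT + ATF6α(N)] hearts and 5.56, 5.64, 5.80, 5.64, 5.55 and 5.45 in those of WT hearts. It was 7.91, 7.78, 7.92, 7.63, 7.77 and 7.95 in [KO + ATF6α(N)] hearts and 7.56, 7.88, 7.54, 7.59, 7.60 and 7.57 in KO hearts. All 6 [WT + ATF6α(N)] libraries were above all 6 WT libraries, and in the KO background the ranges overlapped through 1 high KO library, replicate 2. The level in [WT + ATF6α(N)] hearts was far below that in KO hearts. Of the 5 transcripts lower with AXER loss, 2 had a positive pooled log2 fold change, with a median of -0.22. At an unadjusted p under 0.05, 1 of the 5 was lower (beside 1.74% of all tested). The median was -0.08 in the WT background (2 of 5 positive) and -0.29 in the KO background (1 of 5). Their mean level had an SD of 0.52 to 0.74 within a genotype, against 0.12 to 0.13 for the 12. So few and variable transcripts cannot show whether they shift.

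The larger group of transcripts that AXER loss raised in the 24 libraries themselves was spread around 0 with ATF6α(N). Of the 137 called higher, 72 had a positive log2 fold change with ATF6α(N), and the median was 0.01. At an unadjusted p under 0.05, 13 of the 137 were higher (9.49%, beside 1.81% of all tested) and 5 were lower (3.65%, beside 1.74% of all tested). Among the 13 were the transcripts of ranks 1, 2, 4, 6, 7 and 8, which are also in the group chosen in XBP1(S) carriers. The 9.49% is therefore not separate from that group or from the choice by small p. Changes of the 137 ran from -2.04 to 0.59. Of the 68 called lower, 39 were positive, with a median of 0.02, and 0 passed an unadjusted p under 0.05 in either direction. As medians, the transcripts that AXER loss moved had neither a general rise nor a general fall with ATF6α(N).

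**Figure D5:**
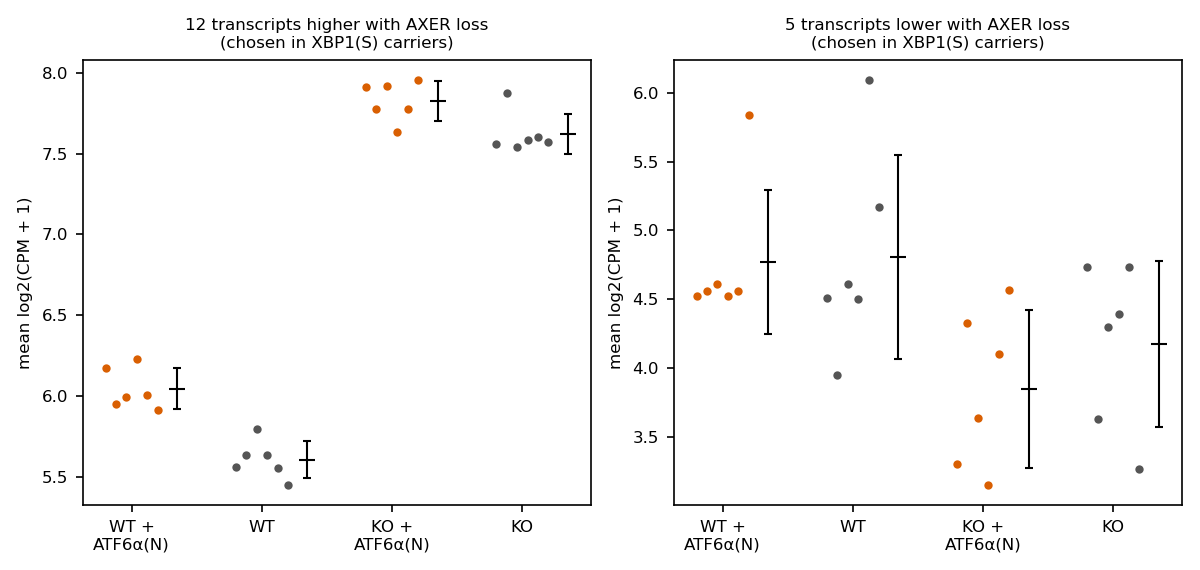
Mean log2(CPM + 1) per library (y axes, which do not start at 0) of 12 transcripts higher and 5 lower with AXER loss among XBP1(S) carriers, in the 4 genotypes of the comparison (points, 6 libraries each; black bar, mean and SD). In the left panel [WT + ATF6α(N)] libraries lie at 5.91 to 6.23 and WT libraries at 5.45 to 5.80, and the KO background lies above both.

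The other active transcription factor of the study gives a measure of size. In an additive fit over all 36 libraries and 18076 transcripts, XBP1(S) against no active allele gave 88 transcripts called higher and 4 called lower by edgeR. At an unadjusted p under 0.05 this contrast had 1311 transcripts. ATF6α(N) against no active allele gave 0 calls (454 at an unadjusted p under 0.05). Set directly against XBP1(S), ATF6α(N) hearts had 2 transcripts called higher and 88 called lower by edgeR (1247 at an unadjusted p under 0.05). Both sets of contrasts share libraries. Of the 4 named transcripts, ENSORLT00000014064.2 was among those lower in ATF6α(N) than in XBP1(S) hearts, by a log2 fold change of -0.998 (edgeR adjusted p = 0.0158, standard error 0.23). That transcript was named for its low level in these same ATF6α(N) libraries, so this p is no separate test. XBP1(S) against no active allele gave it a log2 fold change of 0.31, which did not pass (edgeR adjusted p = 0.845). ENSORLT00000009162.2 was higher with XBP1(S) than with no active allele, with a log2 fold change of 0.63 (adjusted p = 0.00201 from edgeR), and its difference between ATF6α(N) and XBP1(S) hearts of -0.27 (standard error 0.12) did not pass (adjusted p = 0.686).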

How the data were processed

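The authors made libraries by Lasy-Seq, which indexes each RNA at reverse transcription before pooling, and trimmed read 1 with fastp 0.21.0, mapped it with BWA-MEM 0.7.17-r1188 and quantified it with salmon. The deposited values are salmon's estimated counts per transcript, 6 libraries to a genotype. The study's methods and processing notes name a mouse cDNA reference, whereas the identifiers are those of medaka transcripts, and the medaka release is not given in the sources used here. Of the estimated counts the authors deposited, 1.88% were not whole (tolerance 1e-06), and all were rounded. In R 4.3.3 with edgeR 4.0.16, transcripts were filtered with filterByExpr by the 4 genotypes, normalized by TMM and fitted by robust quasi-likelihood, additively (AXER genotype and ATF6α(N)) for the pooled effect and with 1 mean per genotype for the effects in each background and their difference. The standard error was the unshrunk log2 fold change over the root of its F value. CPM use the normalized library size. Only the additive test of the pooled effect was run on simulated counts, not those of each background, of their difference or of the library measures. Alternatives were other scalings, filters and fits, limma-voom (limma 3.58.1) and DESeq2 1.42.0, thinning to 2524357 reads, and each library left out.

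The rule for named genes allowed, where no identifier is paired with a gene, 2 transcripts on each side by the smallest p among those of at least 1 CPM on average in one arm; ranks run over that set, and the others described are those of rank 8 or better. Members and lists were chosen with earlier results of these data known, and the group from the XBP1(S) carriers after the leading transcripts had been seen. Lists of ATF6 targets and cell type markers were not tested, for want of gene names. No sequence is shown for the same reason.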

Additional observations from a re-analysis of the deposited data

Results flagged for a closer look

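In 9 described transcripts and 4 library measures, over the 4 genotypes, 52 sets of 6 libraries were searched for a library far from the others, by Dixon's 95% critical value. Chance gives about 1 in 20 such sets, and 3 were found. One WT library had 1.17 CPM of the transcript of rank 5, which was at most 0.418 CPM in the other WT libraries. One WT library had 318 CPM of the transcript of rank 7, against 222 to 255 CPM in the others. One KO library had 19619140 estimated reads, the most of all 24. Reads were searched untransformed here, not on the log10 scale of the permutation test. Without the library concerned, the pooled log2 fold change of the transcript of rank 5 was 4.21 (edgeR adjusted p = 0.0879) and that of rank 7 was 0.40 (edgeR adjusted p = 0.562). The KO library is replicate 2, without which 1 transcript was called in the pooled comparison.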

How the results depend on the processing

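No transcript was called in the pooled comparison under edgeR with another scaling, filter or fit, or with limma-voom, and 2 were with DESeq2. Leaving out 1 library in turn gave 0 to 1 pooled calls, with 1 without KO replicate 2 and 1 without [KO + ATF6α(N)] replicate 2. The 2 calls of the WT background became 4 after thinning and 0 to 3 when 1 library was left out. The KO background and the difference of the effects gave 0 calls in all 35 and 34 alternatives. In the KO background the smallest adjusted p from DESeq2 was 0.0212, for a change not above 1.5-fold. No result reversed. Of the 4 named transcripts, ENSORLT00000007261.2 was called with DESeq2 (log2 fold change -1.24) and ENSORLT00000005468.2 without [KO + ATF6α(N)] replicate 2 (0.65); over all alternatives their pooled log2 fold changes were -1.41 to -1.04 and 0.45 to 0.65. Those of ENSORLT00000009162.2 were 0.34 to 0.43 and of ENSORLT00000014064.2 -0.78 to -0.60. With all 36 libraries the smallest pooled adjusted p from edgeR was 0.0420, for a change under 1.5-fold. No paired analysis was possible because the labels give the libraries no replicate numbers, and replicate numbers here follow the order of columns only. Depth limits transcripts under 5 CPM.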
